A study of Mus musculus with 10 samples.

Results

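The 9 genes described here encode tight junction proteins of mouse cells: the claudins Cldn1, Cldn3, Cldn5, Cldn10, Cldn11 and Cldn12, the MARVEL-domain protein occludin (Ocln), the cytoplasmic scaffold ZO-1 (Tjp1) and the junctional adhesion molecule JAM-A (F11r). They were found by gene symbol among the 53379 genes of the count files, and each symbol matched 1 gene. They were chosen by their values in the contrast of cKO with control libraries, in which Cldn3 was much lower, so the fold changes of the 9 genes, and whether they passed the threshold, are given as a description, with no p-value and as no evidence of their own. The libraries came from E16 cortex, from cells of the Emx1+ lineage that Mosaic Analysis with Double Markers (MADM) had labeled with GFP, tdT or both. Each library held 400 cells from 1 embryo, sorted by FACS with the 3 kinds of labeled cell together, and was prepared by Smart-Seq2 from polyadenylated RNA.

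The 7 control embryos were MADM-7 GT/TG;Emx1 Cre/+, and the 3 cKO-Cdkn1c-MADM-7 embryos carried the Cdkn1c-flox allele on the GT as well as the TG copy of chromosome 7, with Emx1 Cre/+. Both genotypes therefore carried the MADM cassettes on chromosome 7 and 1 copy of Emx1-Cre, which is active in dorsal cortical progenitors and their progeny. In MADM, single-color cells can hold both copies of chromosome 7 from the same parent, and such cells were pooled with the others in both genotypes. The background was mixed C57BL/6J and CD1 by the protocol, while the sample labels name CD1 alone. A library pooled progenitors and neurons, so fewer cells of a type and less RNA per cell cannot be told apart. Reads on genes ran from 1738220 to 3362487 per library, and the share of uniquely aligned reads that fell outside genes ran from 5.47% to 16.7%. Levels are given as CPM, the reads of a gene divided by the scaled library size and put on a common total, after TMM scaling (edgeR's trimmed mean normalization), and every count is of reads, since Smart-Seq2 carries no molecular identifiers. Cdkn1c, the deleted gene, checked the labels: 32, 10 and 18 reads in cKO against 116 to 369 in the controls, with a log2 fold change of -3.66 ± 0.31 (SE).

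Tight junctions seal the space between neighboring epithelial or endothelial cells. Claudins are their strand-forming proteins, and the set of claudins in a cell decides which ions and solutes pass. Occludin and its relatives sit in the same strands, junctional adhesion molecules lie beside them, and ZO proteins tie all of these to actin. In the cortex, radial glia progenitor (RGP) cells lose occluding tight junctions when the neural tube closes and keep adherens junctions at the ventricle, while the barrier of blood vessels rests on Cldn5 and that of the choroid plexus on Cldn1, Cldn2 and Cldn3. Cldn11 is the claudin of oligodendrocyte myelin.

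The minimum for a test, 10 reads per library on average, was reached by 3 of the 9 genes, namely Cldn3, Cldn12 and Tjp1, and 1 of them, Cldn3, passed edgeR's quasi-likelihood test with Benjamini-Hochberg adjustment over 11551 genes, being lower in the cKO libraries. In this comparison 3.15% of all genes tested passed, 0.883% as lower and 2.27% as higher. The contrast chose the genes, so nothing is read from their share. The other 6 genes did not reach the minimum and were not tested. Cldn3 was also the one claudin with more than 100 reads in most controls.

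The promoter windows of the 3 genes with enough reads are shown so that the base composition at an annotated start can be set beside each gene's values. They come from RefSeq (GRCm38.p6), 250 bases before to 50 bases after a start site, 5′ to 3′ on the gene's strand. All 9 genes had an entry. The Cldn3 start is the 5′ end of the gene, whereas the Cldn12 start lies 169 bases and the Tjp1 start 156537 bases inside the annotated gene, each within 5 bases of an annotated transcript start. Capitals mark the GC box, GGGCGG or its complement CCGCCC.
Cldn3, chr5:134985964-134986263, + strand: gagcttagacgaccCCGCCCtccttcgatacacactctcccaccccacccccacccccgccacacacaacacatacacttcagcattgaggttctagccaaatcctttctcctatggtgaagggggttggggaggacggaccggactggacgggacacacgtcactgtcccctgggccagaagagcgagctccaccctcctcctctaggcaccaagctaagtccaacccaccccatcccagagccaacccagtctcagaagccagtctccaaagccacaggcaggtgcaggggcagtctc
Cldn12, chr5:5514740-5515039, - strand: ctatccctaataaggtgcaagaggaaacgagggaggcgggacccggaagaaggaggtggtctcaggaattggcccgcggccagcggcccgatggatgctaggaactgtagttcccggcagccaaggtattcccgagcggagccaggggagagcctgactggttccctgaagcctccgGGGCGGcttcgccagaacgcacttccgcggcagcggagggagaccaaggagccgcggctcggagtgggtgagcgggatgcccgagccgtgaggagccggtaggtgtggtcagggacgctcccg
Tjp1, chr7:65371195-65371494, - strand: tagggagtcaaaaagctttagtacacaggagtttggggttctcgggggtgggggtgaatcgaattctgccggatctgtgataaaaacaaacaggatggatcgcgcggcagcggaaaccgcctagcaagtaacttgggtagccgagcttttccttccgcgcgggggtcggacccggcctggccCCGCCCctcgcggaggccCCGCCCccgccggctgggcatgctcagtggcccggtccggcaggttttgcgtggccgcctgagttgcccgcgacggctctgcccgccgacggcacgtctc

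The Cldn3 window was the poorest of the 3 in CpG, with 9 CpG dinucleotides and a GC content of 60.7%, beside a median of 7 CpG over 32817 RefSeq windows of the same length. The Cldn12 window held 26 CpG at 66.3% GC, and the Tjp1 window held 31 at 65.3%. The GC box was found 1 time in the Cldn3 window, 1 time in the Cldn12 window and 2 times in the Tjp1 window, and 35.6% of all windows held it. The E-box, CANNTG, occurred 1 time in the Cldn3 window and in neither of the others, and 72.3% of all windows held it. The CCAAT box, CCAAT or ATTGG, occurred 1 time in the Cldn12 window (37.4% of all windows), and the TATA box, TATAAA or TTTATA, in none of the 3 (13.6% of all windows). Both strands were searched, and no match overlapped another.

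Cldn3 (ENSMUSG00000070473.4, chr5:134986214-134987472 on the + strand of GRCm38, 1 transcript with 1259 exonic bases) encodes a barrier-forming claudin of simple epithelia. The cKO libraries held 13, 3 and 15 of its reads, or 4.38, 1.18 and 6.36 CPM. In the 7 controls it had 226, 144, 111, 178, 70, 221 and 239 reads, and its level ran from 32.7 CPM over a median of 57.7 to 85.0. The highest cKO library was thus below the lowest control, and the genotypes did not overlap, as was the case in this direction for 2.68% of all genes tested. The mean was 3.98 CPM ± 2.62 (SD, n = 3) in cKO and 61.3 CPM ± 21.1 (SD, n = 7) in control.

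The fitted difference for Cldn3 was a log2 fold change of -3.95 ± 0.48 (SE), which left 6.49% of the control level. Among the 11551 genes tested, 3 had a larger fall on this scale, and the median of all genes was 0.01. Leaving out 1 library at a time moved the value between -4.39 and -3.55. The libraries fell into a set with few reads outside genes and a set with many, and the difference was present in both. In the set with few, the single cKO library had 6.36 CPM against a mean of 74.5 over 4 controls, and in the set with many, 2 cKO libraries averaged 2.78 CPM against 43.7 over 3 controls. The gene overlaps an antisense gene, Wbscr25, and reads that touch both are dropped by the counting, but the counts summed over the strands gave 1227 reads in place of 1220.

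**Figure D1:**
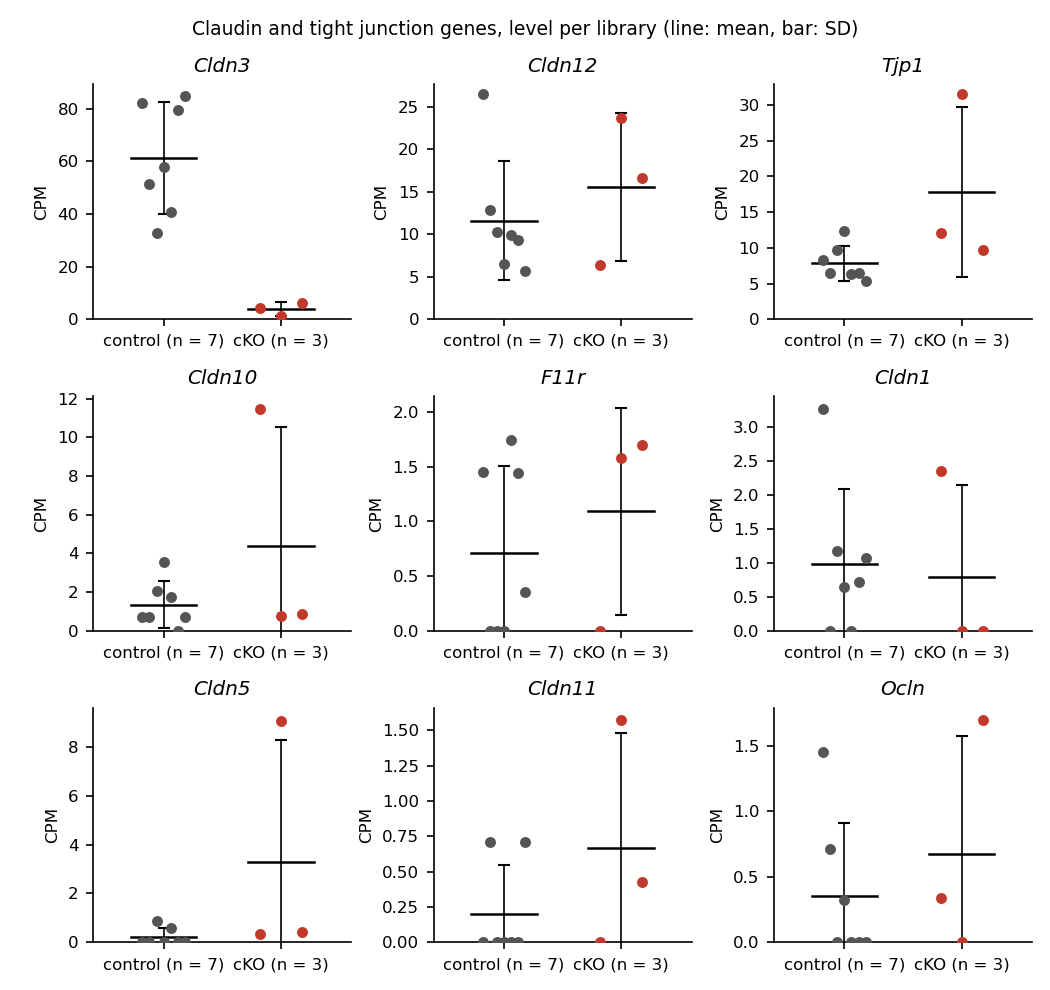
Level of each of the 9 genes in CPM (vertical axis, scaled per gene) in the 7 control (grey) and 3 cKO (red) libraries; points are libraries, the line is the mean and the bar the SD, cut at 0. Cldn3 is 32.7 CPM or more in every control and 6.36 CPM or less in every cKO library, while the genotypes overlap for the other 8 genes.

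Cldn12 (chr5:5489537-5514958, - strand) encodes an atypical claudin without the PDZ-binding end by which the others bind ZO proteins. Its reads were 19, 60 and 39 in cKO, and in control 16 to 73 with a median of 26. Its level was 15.5 CPM ± 8.66 (SD, n = 3) in cKO and 11.6 CPM ± 7.00 (SD, n = 7) in control, and control replicate 1, at 26.5 CPM, was above every cKO library. The log2 fold change of 0.39 ± 0.45 (SE) was smaller than its error, and without cKO replicate 2 it was -0.081. The genotypes overlapped, unlike those for Cldn3 on the same chromosome.

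Tjp1 (chr7:65296165-65527781, - strand) lies on chromosome 7, the chromosome that carries the MADM cassettes. Its product binds the tails of claudins and occludin, and in progenitors it is also found at adherens junctions. Its reads in cKO were 36, 80 and 23, or 12.1, 31.5 and 9.76 CPM, and in control 11 to 38, or 5.33 to 12.3 CPM with a median of 6.47. The log2 fold change was 1.14 ± 0.38 (SE), which was not past the threshold. The groups overlapped, since control replicate 4 at 12.3 CPM was above 2 of the cKO libraries. The value rested mostly on cKO replicate 2, without which it was 0.45.

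The remaining 6 genes were close to the limit of detection. Cldn1 and Cldn5 lie on chromosome 16, Cldn10 on 14, Cldn11 on 3, Ocln on 13 and F11r on 1. A count of 0 allows up to 3 reads, or 0.883 to 1.75 CPM depending on the library, for counting error only. Cldn5, the main claudin of brain endothelium, had 1, 23 and 1 reads in cKO and 0 to 3 in control, with 5 of 7 controls at 0. The 23 reads made up all but 2 of its reads in cKO. The same library, cKO replicate 2, held reads of 13 of 16 endothelial markers, whereas 4 to 7 of the 16 had a read in each control and 4 and 5 in the other cKO libraries. Its endothelial reads included 10 of Pecam1, 7 of Kdr, 7 of Emcn and 5 of Flt1. The summed level of the list was 46.2 to 66.2 CPM in cKO and 50.9 to 79.2 CPM in control, with 44.0% to 86.7% of it from Mfsd2a, a lipid transporter at 23.9 to 35.6 CPM in cKO and 37.4 to 61.1 CPM in control. Without Mfsd2a, a sum added after the data were seen, cKO replicate 2 had 37.0 CPM, above the other 9 libraries at 9.35 to 25.3 CPM. Abcb1a, Erg and Sox17 were at 0 in all 10 libraries. The part of endothelial RNA in the values of Cldn5 and Tjp1 was not tested.

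Cldn10, which forms ion-selective pores in several epithelia, had 34, 2 and 2 reads in cKO and 0 to 11 in control, so that cKO replicate 1 held most of them. Cldn1, a barrier claudin of epidermis and choroid plexus, had 7, 0 and 0 reads in cKO and 0 to 9 in control. The choroid plexus markers moved unevenly beside them: 3 to 6 of the 10 had a read in each cKO library and 0 to 4 in each control, with a summed level of 9.85 to 60.2 CPM against 0 to 23.9. Ttr, the thyroid hormone carrier of that tissue, had 96, 14 and 129 reads in cKO and 0 to 56 in control, and Kl and Kcne2 were at 0 throughout. The cKO libraries with the most Ttr were thus replicates 3 and 1, and Cldn10 was high in the latter alone. The part of choroid plexus RNA in these values was not tested.

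Cldn11 had 0, 4 and 1 reads in cKO and 0 to 2 in control. Ocln had 1, 0 and 4 reads in cKO and 0 to 4 in control. F11r had 0, 4 and 4 reads in cKO and 0 to 4 in control. Occludin and JAM-A are general components of epithelial and endothelial strands, and for these 3 genes no difference was detectable at this depth. Markers of other epithelia were as scarce: of 6, Krt8 and Krt19 had no read, Epcam had 15 reads over the 7 controls, Grhl2 9, Krt18 5 and Esrp1 4, and the summed level was 0 to 3.15 CPM in cKO and 0.582 to 3.92 CPM in control. The part of epithelial RNA in these values was not tested.

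The claudin family was then taken as a whole. The annotation holds 33 claudin genes, 16 of which had no read in any library, and 5 to 8 had a read in any 1 library. In the controls 65.7% to 87.4% of all claudin reads were of Cldn3, with a median of 74.6%. In the cKO libraries the share was 14.6%, 3.16% and 24.2%. The summed claudin level was 49.7 to 117 CPM in control and 26.3 to 37.4 CPM in cKO, so these did not overlap either. With Cldn3 left out, the sums were 11.5 to 35.2 CPM in control and 19.9 to 36.2 CPM in cKO, and the genotypes overlapped. Most of the family's reads in a control library were thus from a single gene, and the lower family total in cKO lay in that gene.

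**Figure D2:**
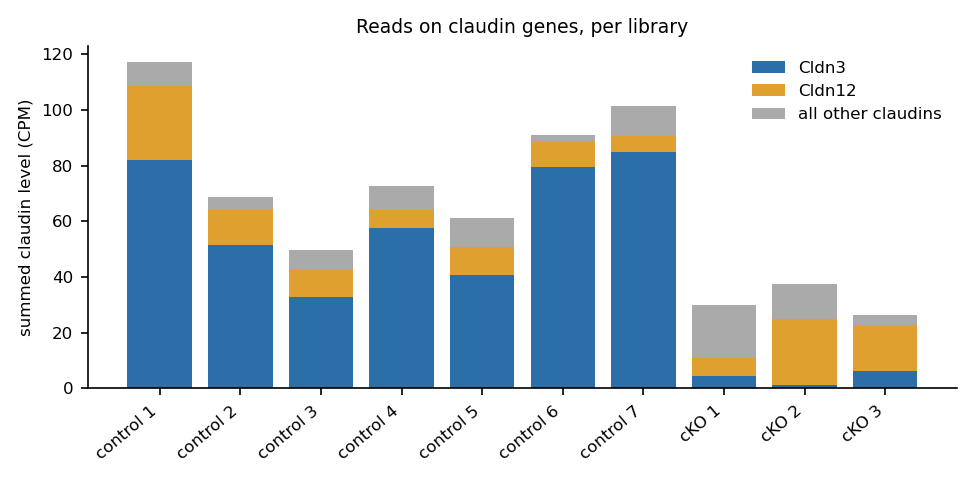
Summed claudin level in CPM (vertical axis) in each library, divided into Cldn3 (blue), Cldn12 (orange) and all other claudins (grey). The controls reach 49.7 to 117 CPM, mostly from Cldn3, and the cKO libraries 26.3 to 37.4 CPM with little Cldn3.

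To compare the genes with each other, CPM was divided by exonic length in kb, since a long gene collects more reads at the same level. In the controls the order was Cldn3 at 48.7 ± 16.8 CPM per kb (SD, n = 7), Cldn12 at 2.74 ± 1.66, Tjp1 at 1.01 ± 0.31, Cldn10 at 0.525 ± 0.462, F11r at 0.268 ± 0.299, Cldn1 at 0.203 ± 0.229, Cldn5 at 0.148 ± 0.260, Cldn11 at 0.109 ± 0.186 and Ocln at 0.0842 ± 0.131. Cldn3 was above Cldn12 in 7 of 7 controls, with a mean log2 difference of 4.22 ± 0.87 (SD). The order was set on these same libraries, so the differences between neighbors are a description, with no test. Tjp1 was above Cldn10 in 7 of 7 controls, with a mean log2 difference of 1.21 ± 1.21, and Cldn12 above Tjp1 in 6 of 7, with 1.32 ± 0.80. From Cldn10 down, the mean difference between neighbors was smaller than its SD in each of the 5 pairs. In the cKO libraries the values per kb were 3.16 for Cldn3, 3.67 for Cldn12 and 2.28 for Tjp1, within 1 SD of each other.

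It was asked whether the level of a gene followed the make-up of the control libraries. The measures were a score for RGP markers, a score for projection neuron markers and the share of reads outside genes, and with 3 genes this made 9 relations over 7 controls. Cldn3 was lower in controls with a higher RGP score, with a Pearson r of -0.64 (exact permutation p = 0.13, adjusted 0.389) and a Spearman ρ of -0.79 (exact permutation p = 0.048, adjusted 0.432). Without the 2 controls farthest from the median score, r was -0.37. Against the share of reads outside genes, Cldn3 gave r = -0.77 (exact permutation p = 0.0661, adjusted 0.331) and ρ = -0.68, and r was -0.90 without the 2 farthest controls. Tjp1 gave r = 0.72 (exact permutation p = 0.0736, adjusted 0.331) and ρ = 0.54 with the same share, and r = -0.087 without the 2 farthest, so this relation rested on them. None of the 9 relations passed after adjustment. Without control replicate 3, Cldn3 against the RGP score gave r = -0.97 over 6 libraries and passed (exact permutation, adjusted p = 0.0375). This was 1 of 7 leave-outs, for whose number the p was not adjusted, and in the other 6 no relation passed. The 4 controls with few reads outside genes and the 3 with many were too few for a value within each set.

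The cell types in the libraries differed in their markers beside these values. Of 9 Cajal-Retzius cell markers, 8 were tested and 8 rose, with a summed level of 657 to 904 CPM in cKO against 26.5 to 237 CPM in control. Of 14 projection neuron markers 4 fell, among them Neurod2, Neurod6 and Cux2, and of 11 tested RGP markers none passed, with 2 under an unadjusted p of 0.05, beside 16.4% of all genes tested. The summed RGP level was 1589 to 3038 CPM in cKO and 1737 to 2918 CPM in control. Of 6 tested interneuron markers 1 rose, Dlx2 (log2 fold change 1.63 ± 0.41), and of 7 intermediate progenitor markers none passed, with 4 under that p (Btg2 at 0.58, and Neurog2, Insm1 and Sstr2 at -0.68, -0.71 and -0.55). The median log2 fold change was 0.10 for the RGP markers, 8 of 11 being above 0, and -0.39 for the intermediate progenitor markers, 3 of 7 being above 0. Single markers do not stand for their lists, and the most counted were Fabp7 for RGP cells (-0.07), Neurog2 for intermediate progenitors (-0.68), Tubb3 for projection neurons (-0.60), Reln for Cajal-Retzius cells (2.71), Dlx1 for interneurons (0.98) and Dcn for meningeal fibroblasts (0.94), each with its log2 fold change. Olig1 of the oligodendrocyte lineage (0.04 ± 1.02) had 70.8 CPM in control replicate 1 and at most 9.28 CPM in the other controls, and Hbb-bs of red blood cells (0.80 ± 1.29) had 2707, 26 and 23 reads in cKO and 0 to 1651 in control, so both were uneven within a genotype. No pericyte or microglia marker reached the minimum, with Notch3 the most counted of the former at 7, 28 and 8 reads in cKO and 2 to 13 in control, but the microglia sum was 56.9 CPM in cKO replicate 3 and at most 8.77 CPM in any other library. The part of these cell types in the values of Cldn3 was not tested.

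The genes whose log2 CPM ran most like that of Cldn3 over the 10 libraries, among all genes tested, were Cdkn1c (Pearson r = 0.98), Snhg18, a long non-coding RNA that hosts a small nucleolar RNA (r = 0.98), and Itpk1, an inositol phosphate kinase (r = 0.97). These points share the split by genotype, and the coefficients describe that split as much as any variation within it. Over the 7 controls alone r was 0.73 for Cdkn1c, 0.66 for Snhg18 and 0.85 for Itpk1. The 3 genes were picked on all 10 libraries, these controls among them, so the values are a description and no separate check. Snhg18 fell from 17.1 to 32.7 CPM in control to 3.15 to 5.94 CPM in cKO, with a log2 fold change of -2.43 ± 0.38. Itpk1 went from 88.5 to 134 CPM to 41.8 to 52.3 CPM, with a log2 fold change of -1.18 ± 0.19. The fall of Cldn3 was close in size to that of Cdkn1c itself, which kept 7.78% of the control level. Reads of Cdkn1c are undercounted where Gm44732 overlaps it, and the counts summed over the strands were 1.89 times as many.

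**Figure D3:**
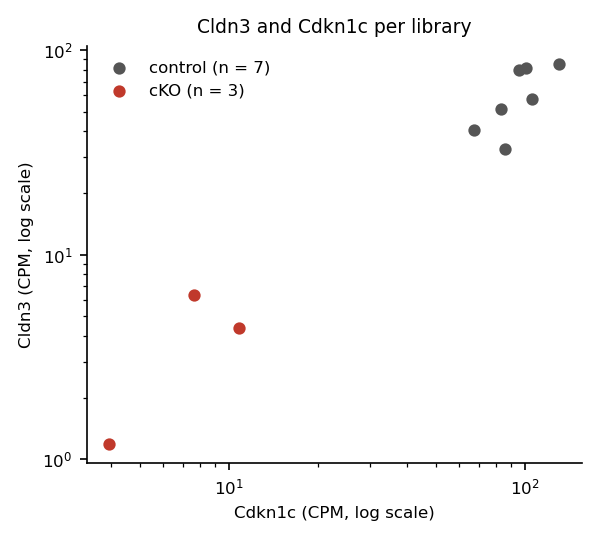
Cldn3 (vertical axis, CPM, log scale) against Cdkn1c (horizontal axis, CPM, log scale) in each library, control in grey and cKO in red. The 3 cKO libraries lie between 3.94 and 10.8 CPM of Cdkn1c and at or under 6.36 CPM of Cldn3, apart from the 7 controls.

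The other tight junction and polarity genes numbered 70, including the 27 remaining claudins, and 32 had enough reads. Of these, 1 fell and none rose (edgeR, adjusted over all genes tested). This is near the 3.15% of all genes tested that passed in either direction, so nothing is read from the count. Of all 11551 genes tested, 1890, or 16.4%, had an unadjusted p under 0.05, and so did 7 of the 32. Their median log2 fold change was 0.26, beside 0.01 for all genes tested, and 20 of 32 were above 0. The gene that fell was Clmp, an adhesion molecule of the immunoglobulin superfamily related to the coxsackievirus and adenovirus receptor. It had 113, 90.6 and 90.4 CPM in cKO and 169 to 258 CPM in control, with a log2 fold change of -1.06 ± 0.17 (edgeR adjusted p = 0.00123). The genotypes did not overlap for Clmp, as for 2.68% of all genes tested in this direction.

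None of the 27 remaining claudins reached 10 reads on average. Cldn20 and Cldn23 were the most counted, with 36 and 26 reads over all libraries. Of 5 tricellular and MARVEL proteins, Ildr2 was tested, with 11.5, 18.5 and 2.97 CPM in cKO and 0.363 to 8.73 CPM in control. Its log2 fold change was 1.95 ± 0.56 (edgeR adjusted p = 0.0704). Without cKO replicate 3, the lowest cKO library, the value was 2.35 and passed (edgeR adjusted p = 0.0267). It also passed without control replicate 5, the highest control (2.27, edgeR adjusted p = 0.0353). Leaving out either library moves the genotypes apart by design, so these passes add no support. In the other 8 of 10 leave-outs Ildr2 did not pass. Of 6 immunoglobulin-fold proteins 4 were tested, Clmp among them. Jam3, a paralog of JAM-A, was at 24.6 to 30.1 CPM in cKO and 16.4 to 22.1 CPM in control, with a log2 fold change of 0.51 (edgeR adjusted p = 0.262).

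Of 10 scaffolds of the tight junction 8 were tested and none passed. The smallest p-values belonged to the multi-PDZ protein Mpdz (log2 fold change 0.74 ± 0.36, edgeR adjusted p = 0.318) and to cingulin, Cgn (0.93 ± 0.51, edgeR adjusted p = 0.388). Of 14 genes of the apical polarity complexes, which set the position of the junction, 11 were tested and none passed. Pard6b was at -0.84 ± 0.33 (edgeR adjusted p = 0.194) and Lin7a at 0.60 ± 0.25 (edgeR adjusted p = 0.227). Of 8 junction regulators all were tested and none passed. Arhgef2, a microtubule-bound guanine nucleotide exchange factor held at tight junctions, was at -0.52 ± 0.16 (edgeR adjusted p = 0.0889). Without control replicate 5, its lowest control, Arhgef2 was at -0.59 and passed (edgeR adjusted p = 0.0487). Leaving out that library can only widen the difference, so this adds no support, and no other leave-out called Arhgef2. Ybx3, a transcription factor that binds ZO-1, was at 0.74 ± 0.37 (edgeR adjusted p = 0.341). Of the 8 scaffolds, 11 polarity genes and 8 regulators tested, 0, 3 and 1 were under an unadjusted p of 0.05, beside the 16.4% of all genes, and DESeq2 called Arhgef2 alone among them.

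**Figure D4:**
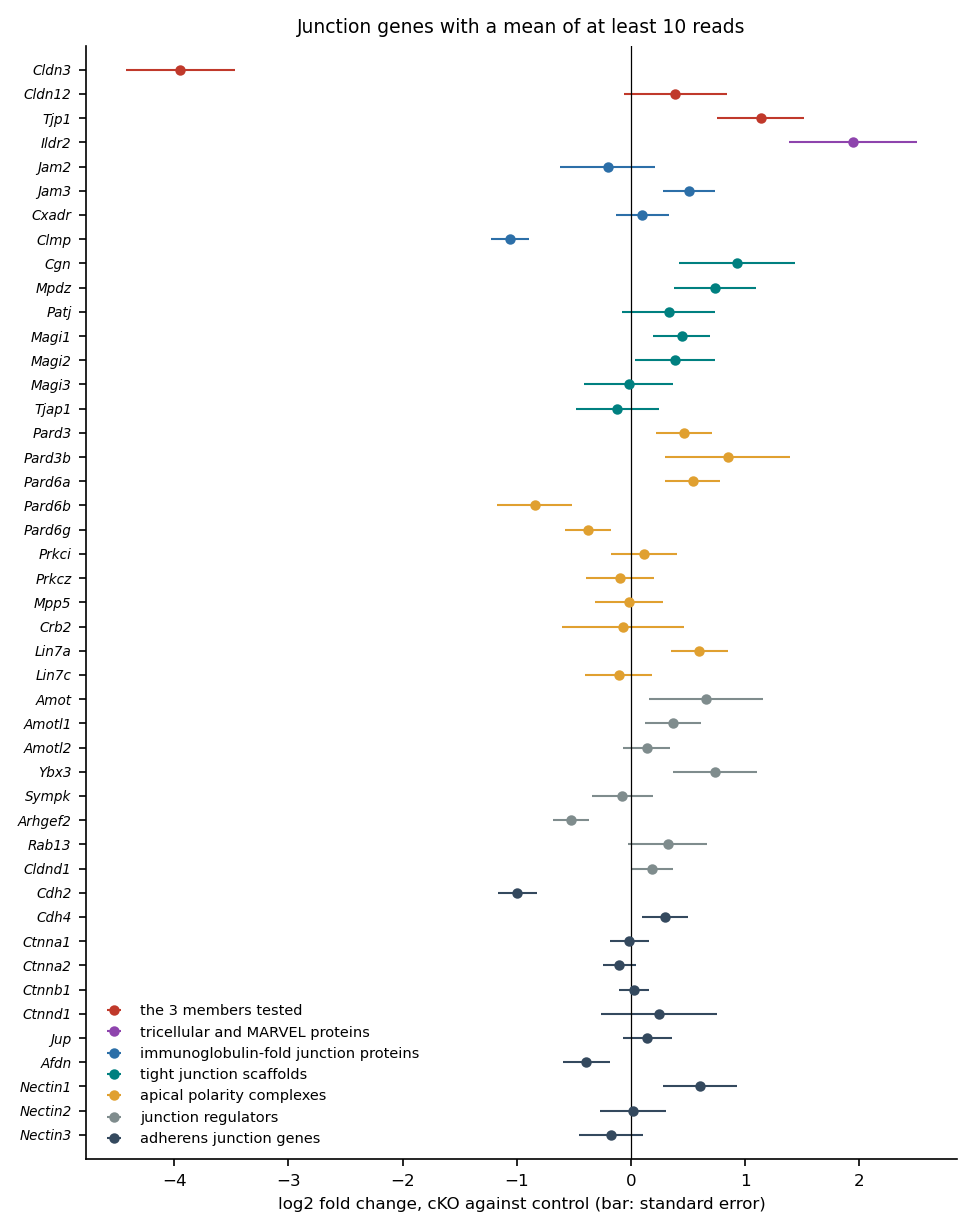
Log2 fold change, cKO against control (horizontal axis), of 45 of the junction genes that were tested, colored by group; bars are standard errors. Cldn3 stands at -3.95, Clmp at -1.06 and Cdh2 at -0.99, and the other genes lie between -0.84 and 1.95.

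Adherens junctions hold RGP cells together at the ventricle. Of 14 adherens junction genes 11 were tested, and 1 fell and none rose, beside 0.883% and 2.27% of all genes tested. The same 1 was under an unadjusted p of 0.05, beside 16.4% of all genes tested. Cdh2, the N-cadherin of neural cells, had 78.9, 108 and 108 CPM in cKO and 153 to 240 CPM in control. Its genotypes did not overlap, as for 2.68% of all genes tested in this direction. The log2 fold change of Cdh2 was -0.99 ± 0.17 (edgeR adjusted p = 0.00297). The partners of Cdh2 in the complex did not pass: beta-catenin, Ctnnb1, was at 0.03 ± 0.13 and alpha-N-catenin, Ctnna2, at -0.10 ± 0.15. Nectin1 had the next smallest p, at 0.61 ± 0.32 (edgeR adjusted p = 0.372). Epithelial cadherin, Cdh1, had no read in any library. The median log2 fold change of the 11 was 0.02.

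Finally, the genes around Cldn3 on chromosome 5 were examined, in a window of 250 kb on either side that was chosen after the data were seen. Of 24 other genes that reach into the window, 10 were tested and none passed (edgeR, smallest adjusted p = 0.42). Their log2 fold changes ran from -0.38 for Mettl27 to 0.79 for Eln, the elastin gene, and Stx1a, a synaptic syntaxin, was at 0.45 ± 0.26. Cldn4 and Cldn13, claudins of the same cluster, had no read. No tested gene beside Cldn3 had a difference near its own in size.

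**Figure D5:**
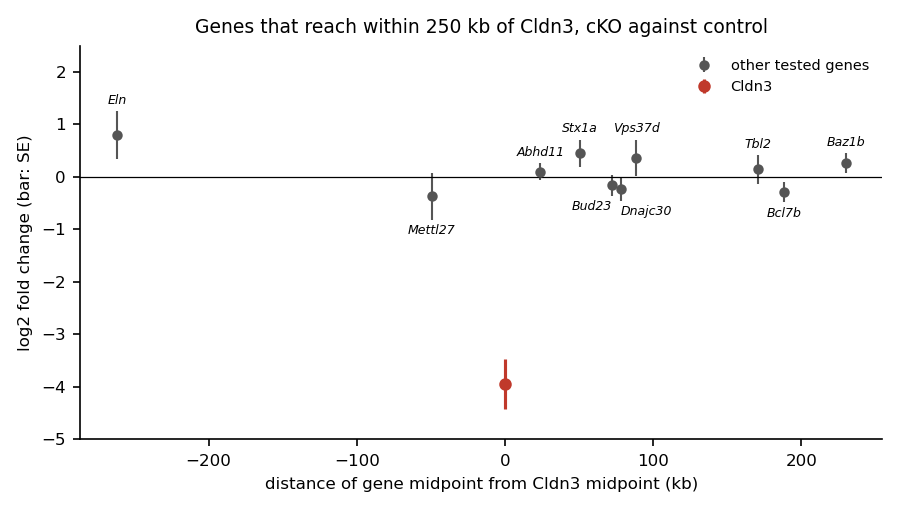
Log2 fold change, cKO against control (vertical axis, bars are standard errors), of the 10 tested genes that reach within 250 kb of Cldn3, by the distance between midpoints in kb (horizontal axis). Cldn3, in red at 0 kb, is at -3.95, and the others run from -0.38 to 0.79.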

How the data were processed

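RNA-seq libraries from 3 cKO-Cdkn1c-MADM-7 and 7 control embryos were analysed, with 1 embryo per library, genotypes being taken from the sample labels. The authors merged the technical replicates of the unaligned reads, converted them to fastq with bedtools 2.26.0, aligned them to GRCm38 with STAR 2.5.0c and the GENCODE M16 annotation, kept unique alignments and deposited raw read counts per gene, without normalization. The column that ignores the strand was used. Reads on overlapping genes are not counted there. Symbols and positions came from GENCODE M21, where 50604 of 53379 identifiers matched with their version, 2670 without it and 105 did not match.

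Some genes of the lists are counted but not reported here by name. Counts were scaled by TMM and tested with edgeR 4.0.16 (R 4.3.3; quasi-likelihood, genotype alone), on genes averaging 10 reads or more, at an adjusted p of 0.05. The standard error is the size of the log2 fold change divided by the square root of F. Correlations and levels used log2 CPM with 0.5 reads added. Over 24 pairs of libraries of a genotype, chi-square per degree of freedom was at least 4.98, so none were duplicates. Same-numbered cKO and control libraries did not deviate together. The scripts were tested on simulated data.

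The genes and lists were chosen with earlier results of these data known. Named genes were Cdkn1c, the 9 genes, every called gene of a junction or marker list, the genes with the 2 smallest p of each junction list, the most counted gene of each marker list, and the 3 genes most like a called gene. Alternatives were DESeq2 1.42.0, its size factors, other filters, the summed strand-specific counts, a replicate block, a covariate for reads outside genes and leaving out each library. Read counts carry no molecular identifiers, so limits from counts cover counting error only.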

Additional observations from a re-analysis of the deposited data

Results flagged for a closer look

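In 7 of 51 quantities examined over the 7 controls, 1 library stood apart from the others by Dixon's criterion. Chance gives about 2.55 (1 in 20 groups) for independent, normally distributed values. Sparse counts and quantities that share reads do not meet this, so the 7 are not read as an excess. Control replicate 1 was high for Cldn12 (26.5 CPM, the others 5.69 to 12.8), for Cldn1 (3.27 CPM, the others 0 to 1.18) and for Olig1, an oligodendrocyte lineage gene (70.8 CPM, the others 0 to 9.28). The claudin sum without Cldn3, which includes Cldn12 and Cldn1, was also highest there, at 35.2 CPM. Control replicate 5 was low for Arhgef2 (84.4 CPM, the others 113 to 131) and for Neurod2 (459 CPM, the others 519 to 556). Control replicate 6 had the only control read of the microglial gene Fcrls (0.360 CPM, the others 0).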

How the results depend on the processing

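The log2 fold change of Cldn3, a description since this contrast chose the gene, ran from -4.39 to -3.55 over 17 alternatives. The count of adherens junction genes called stayed at 1 in all 17. Without the filter on low counts, 961 genes were called in place of 364 and 3 of the 9 genes in place of 1, Cldn5 (3.66 ± 0.93, from 23 reads in 1 library) and Tjp1 (1.12) being added. Of the other tight junction and polarity genes, 2 were called without the filter (Ildr2 added), 2 by DESeq2 (Arhgef2 added) and 1 to 3 when 1 library was left out. DESeq2 called 510 genes, 300 higher and 210 lower, so that lower calls were a larger share than with edgeR. The replicate block called 213 genes, 141 higher and 72 lower, against 262 and 102, and turned Cldn12 to -0.11; leaving out 1 library put Cldn12 between -0.081 (without cKO replicate 2) and 0.80. Same-numbered libraries correlated at -0.194 to 0.0223 in their deviations, and 0 of 3 cKO libraries correlated best with its own number. No pairing by number was seen, but 3 correlations cannot exclude one. Leaving out 1 library gave 271 to 424 genes called and 1 of the 9 genes each time. Of the relations across controls, 0 to 1 passed when 1 control was left out: without control replicate 3, Cldn3 against the RGP score gave r = -0.97 over 6 libraries (exact permutation, adjusted p = 0.0375). The causes of these changes were not tested. Reads per library limit 6 of the 9 genes to values near the detection limit.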
